A study of Mus musculus with 24 samples.

Results

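Histone genes encode the core histones H2A, H2B, H3 and H4, around which DNA is wound, and the linker histone H1, which binds where DNA enters and leaves the nucleosome. They were chosen by gene symbol, with a pattern that takes in the numbered H1, H2A, H2B, H3 and H4 genes and the H2A and H3 variants, and 73 of the 20868 genes with a measured 3'UTR interval matched it. Of these, 60 were replication-dependent genes (5 for H1, 16 for H2A, 15 for H2B, 12 for H3 and 12 for H4). A further 6 were polyadenylated replacement genes (H1f0, H1f10, H2az1, H2az2, H3f3a and H3f3b), 5 were germ cell genes, 1 was a pseudogene, and H2ax was kept apart because its transcripts are made with either kind of 3' end. Symbols without an interval (H2ac14, H2af-ps1, H3f3a-ps1, H3f3a-ps2 and H3f3c) were not analysed here.

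The measurements came from SLAM-seq, in which newly made RNA takes up 4-thiouridine (4SU) and the label is read as T-to-C conversions in 3'-end sequencing libraries. Mouse Meis1/Hoxa9 preleukemic cells, grown in stem cell factor, IL-6 and IL-3, were exposed to 2.9 μM 4SU over 12 h and then moved to medium without it. The 24 libraries were 3 replicates of each of 8 groups, control or Tut4/7 Vav-iCre cDKO at 0, 60, 180 or 540 min of chase, and comparisons of the genotypes asked what loss of the 2 terminal uridylyltransferases did to transcript levels and decay. All groups carried the oncogenes and had been through the 4SU pulse, and Vav-iCre deletes in blood cells generally. According to the methods the cells were made from c-Kit+ fetal liver cells by retroviral transduction, and the replicates were biological. Chase time and batch cannot be told apart, because each chase time is labelled as a batch of its own, while each comparison of genotypes at a given time lies within a batch.

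Canonical histone mRNAs are made in S phase and end in a conserved stem-loop rather than a poly(A) tail. The stem-loop is bound by SLBP, and when DNA synthesis stops these mRNAs are degraded, a process in which oligouridine is added to the 3' end by terminal uridylyltransferases. Replacement histone genes are expressed throughout the cell cycle, have introns in most cases, and end in poly(A). The libraries were primed with oligo(dT), so transcripts that end in the stem-loop without any adenosine tail are not the template of the method. Which molecules gave the reads of the replication-dependent genes was not tested.

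The stem-loops below are shown because they separate the 2 kinds of gene in sequence, independently of any reading of their levels. They are the mouse GENCODE vM39 transcript sequences within 100 bases after the stop codon, written 5' to 3', and capitals mark the arms of the 6-base-pair stem around a loop of 4 bases.
H2ac23: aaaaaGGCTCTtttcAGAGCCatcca
H2ac24: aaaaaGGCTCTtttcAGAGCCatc
H2ac8: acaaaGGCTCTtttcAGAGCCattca
H2ac20: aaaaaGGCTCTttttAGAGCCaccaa
H2bc11: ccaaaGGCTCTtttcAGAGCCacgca
H3c3: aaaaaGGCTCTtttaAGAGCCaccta
H4c3: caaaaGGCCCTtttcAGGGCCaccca
H1f2: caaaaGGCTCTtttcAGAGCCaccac
H2ax: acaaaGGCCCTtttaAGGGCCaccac
A stem-loop of this form was found in 41 of the 47 replication-dependent genes with a usable transcript (87.2%), in 0 of the 6 replacement genes, in H2ax, and in 66 of 20785 protein-coding genes outside the set (0.318%). It lay 21 to 58 bases after the stop codon, with a median of 31. The stem and loop of H2ac23 and H2ac8 were carried by 23 replication-dependent genes, and those of H4c3 by 6 genes, all for H4. The replication-dependent genes with a transcript but without a match were H1f1, H2bc21, H2bc22, H2bc23, H2bc4 and H3c13, and for a gene such as H2bc4 with a long interval this says only that these letters were not in the window searched. In RefSeq promoters (GRCm38.p6, 250 bases before to 50 bases after the start, both strands), TATAAA was present in 32 of 55 replication-dependent genes (58.2%) against 14.2% of 27025 promoters, and CCAAT in 47 of 55 (85.5%) against 37.9%. Among the replacement genes TATAAA was found in 1 of 6 and CCAAT in 4 of 6.

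The replication-dependent genes lay in the large cluster on chromosome 13 (50 genes, chr13:21715713-23764412) and the smaller one on chromosome 3 (10 genes, chr3:96220309-96270192), with coordinates on mm10 (GRCm38). In 55 of the 60, the interval counted was 42 to 79 bases long, with a median of 52 bases, and held 7 to 34 T positions. The exceptions were H2bc21, H2bc22, H2bc23, H2bc4 and H2bc6, at 198 to 2192 bases. Intervals of the replacement genes were 369 to 1446 bases. A read covered a median of 8.87 T positions in the short intervals and 13.2 to 26.6 T positions in those of the replacement genes, so a read of a canonical gene gave fewer positions at which label could be seen.

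Reads of the 73 genes made up 0.991% of all 3'UTR reads, 1279445 of 129079076 over the 24 libraries, and they were spread unevenly. H2ac23 held 631889 reads and ranked 4 among all genes, and H2ac24 held 271199 reads and ranked 30, so this pair of H2A genes had 70.6% of the reads of the set. Of the reads assigned to H2ac23, 99.9% were multimapping, that is, they aligned to more than 1 place in the genome, and the same share held for H2ac24. The first 57 of 57 bases compared after their stop codons were identical, and the ratio of H2ac23 to H2ac24 reads stayed between 2.26 and 2.37 in every library, with a median of 2.34. Reads of the pair covered 2.67 T positions each in H2ac23 and 2.42 in H2ac24, out of 9 in each interval. The values of these 2 genes are therefore read as those of 1 unresolved pair, although each is counted as a gene in the counts of genes below.

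The other 58 replication-dependent genes together held 65286 reads (5.10% of the set), from 1 to 14327 reads per gene with a median of 405.5. H2ac20 and H2ac8 contributed 38.9% of them. Most reads were multimapping in 8 of these 58 genes (H2ac18, H2ac19, H2bc23, H3c14, H3c15, H3c7, H4c17 and H4c18), and their values are uncertain for the same reason as those of the pair. The 6 replacement genes held 22.4% of the reads of the set, and multimapping reads were 70.7% for H2az1, 27.6% for H3f3a and 19.8% for H3f3b. The 5 germ cell genes had 14 reads in all, and H1f7 and H1f8 had none. Of the reads of the pseudogene H2af-ps2, 98.9% were multimapping, so its values are uncertain too.

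**Figure D1:**
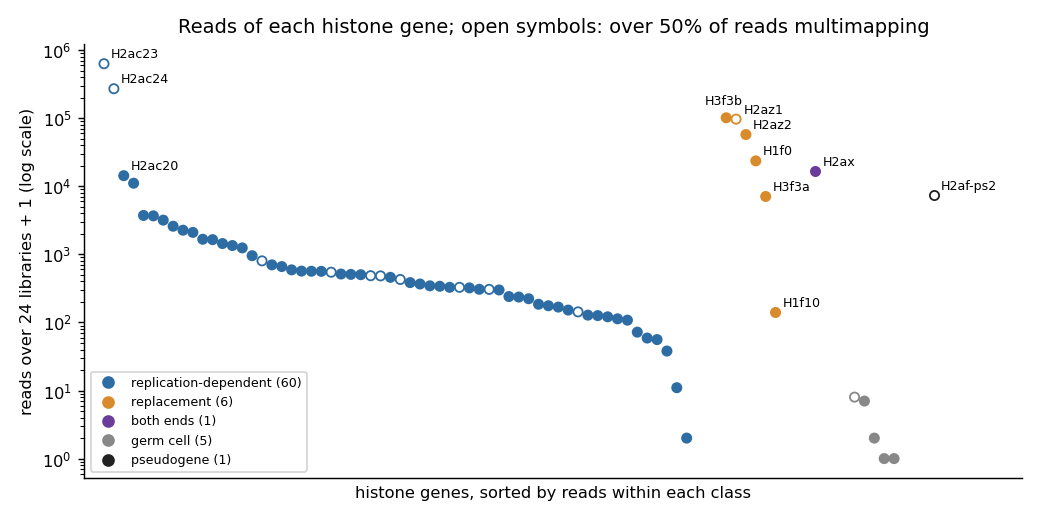
Reads of each of the 73 histone genes summed over 24 libraries, on a log scale after adding 1, sorted within each class. H2ac23 and H2ac24, drawn as open symbols because most of their reads are multimapping, stand above every other histone gene, and the 5 germ cell genes lie at the bottom with 14 reads in all.

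Libraries held 9552906 to 13882269 filtered reads, of which 4380238 to 7041311 fell in 3'UTR intervals. Tut4 fell from control means of 76.5 to 90.3 CPM (reads scaled to the library's total of 3'UTR reads) to 22.2 to 34.7 in cDKO, and Tut7 from 40.0 to 59.5 down to 18.7 to 28.6, each passing the test at all 4 times. The library-wide conversion rate at 0 min was 1.62 to 1.67% in control but 0.821, 0.845 and 0.542% in the 3 cDKO libraries. The test of label at 0 min was therefore run relative to each library's own rate. The decay test was not scaled in this way, half-lives used the genotype mean at 0 min, and rates in percent are unscaled. The genotypes also differed in cell markers at each time. The summed level of 9 myeloid progenitor markers was 8372 to 9344 CPM in control and 2803 to 4079 in cDKO libraries, that of 9 erythroid markers was 0.372 to 3.07 against 1307 to 2091 CPM (Epor and Alas2 at 0 in all libraries, and Hbb-bt the only 1 of the 9 that passed the filter on low counts), that of 5 mast cell and basophil markers was 15.8 to 34.5 against 130.4 to 246 CPM, that of 6 neutrophil markers was 32.0 to 79.7 against 0 to 1.96 CPM, and that of 4 macrophage markers was 43.9 to 85.2 against 176 to 286 CPM. The macrophage markers did not move together, since Adgre1 was higher and Csf1r lower in cDKO at all 4 times, with C1qa and C1qb at 0 in every cDKO library. Nor did the 9 myeloid progenitor markers, of which 3, 4, 4 and 3 were called lower and 0, 1, 1 and 0 higher in order of time. Of all genes, 6.64, 10.2, 9.78 and 10.4% were called lower and 6.72, 9.97, 9.1 and 8.89% higher. B cell and T cell markers did not exceed 1.99 CPM in any library. In bulk samples, fewer cells of a type and less RNA per cell cannot be told apart, and the part of these cell markers in the histone values between genotypes was not tested. No marker of these lists was called between 0 and 540 min in cDKO (0.117% of all genes), in the interaction (0.0%) or in the decay difference (0.13%). Between 0 and 540 min in control, 2 of 9 myeloid progenitor markers were called higher and 1 lower. There, 1 of 3 neutrophil markers tested was lower and 1 of 2 macrophage markers higher. Of all genes, 8.06% were called higher in that comparison and 8.18% lower. In label at 0 min, 2 of 9 myeloid progenitor markers were called higher in cDKO, beside 0.284% of all genes.

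Within the set, the summed level of the replication-dependent genes apart from the pair was higher in cDKO than in control at each time, and that of the replacement genes was lower. The sum over the 58 replication-dependent genes was 595, 552 and 594 CPM in the control libraries at 0 min against 700.2, 752 and 805 in cDKO. After 180 min it was 349, 353 and 366 CPM in control against 665, 539 and 581 in cDKO. The groups did not overlap at 0, 60, 180 or 540 min, and the ratios of the means were 1.30, 1.45, 1.67 and 1.48. Leaving out H2ac20, the gene with the most reads among the 58, gave ratios of 1.40, 1.51, 1.67 and 1.63. The third cDKO replicate had the lowest conversion rate of its group at every time, and without it the log2 ratios were 0.32, 0.56, 0.76 and 0.44, against 0.37, 0.54, 0.74 and 0.56 with it. Same-numbered cDKO libraries correlated across times, so the 4 times are not independent comparisons. No test was run on a sum over genes.

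The pair did not share this pattern. H2ac23 and H2ac24 together stood at 9586, 9000.1 and 8667 CPM in control and at 9667, 10212 and 6627 CPM in cDKO at 0 min, and the groups overlapped there and at 60 and 180 min, with ratios of 0.973, 1.02 and 1.07. After 540 min the cDKO libraries, at 5614, 6333 and 5410.2 CPM, lay above the control libraries at 4097, 4679 and 4542 CPM, a ratio of 1.30. The third cDKO library at 0 min was the low one, and it also had the lowest conversion rate of that group. Without it the log2 ratio of the pair at 0 min was 0.13 rather than -0.04, and without the first control library it was 0.00033. At 60 min the log2 ratio was 0.035. It turned to -0.0018 without the first control library and to -0.0058 without the second cDKO library, so no direction is given for the pair at these times. Without multimapping reads the log2 ratio at 60 min was -0.045, a value that rests on the few reads of the pair then left.

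The 6 replacement genes summed to 2452, 2462 and 2473 CPM in control at 0 min against 2033, 2191 and 1901 in cDKO. Every cDKO library lay below every control library at all 4 times, with ratios of 0.829, 0.851, 0.878 and 0.943. These ratios kept their direction with TMM or RLE library sizes and without multimapping reads.

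**Figure D2:**
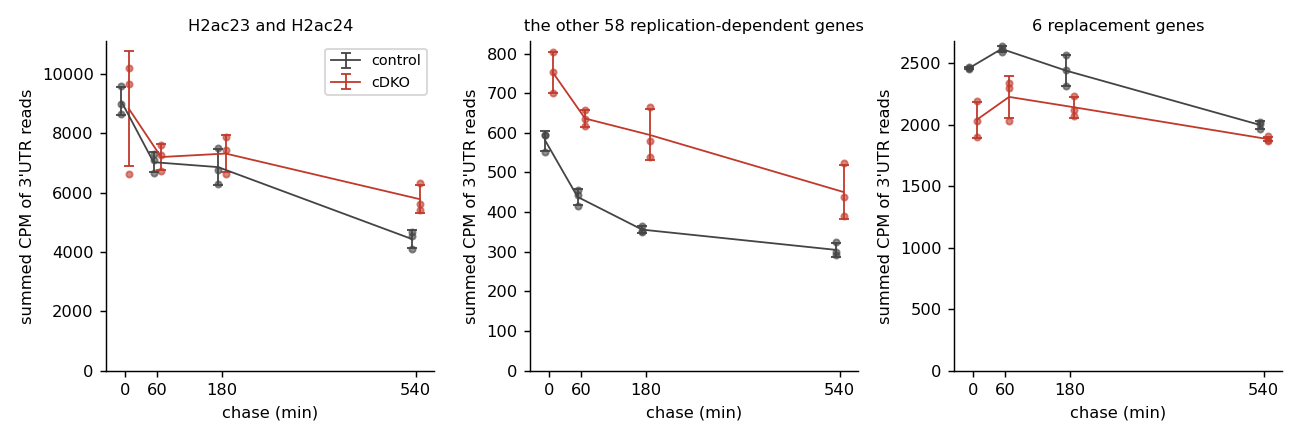
Summed CPM of the pair H2ac23 and H2ac24, of the other 58 replication-dependent genes and of the 6 replacement genes by chase time in min; points are libraries, lines join group means, and bars show SD (n = 3). The cDKO points lie above the control points at all 4 times in the middle panel, below them at all 4 times in the right panel, and apart only at 540 min in the left panel.

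By family, the sums of H2A, H2B and H4 genes outside the pair were higher in all cDKO libraries than in any control library at all 4 times, the H3 sum at 60 and 540 min, and the H1 sum at none. For H4 genes the ratio of cDKO to control was 1.43, 1.54, 1.64 and 1.65 in order of chase time, and for H2A genes 1.31, 1.48, 1.86 and 1.46. For the H1 genes it was 1.01, 1.08, 1.09 and 1.31, with overlapping groups. The genes on chromosome 13 without the pair gave ratios of 1.43, 1.54, 1.73 and 1.67, whereas the 10 genes on chromosome 3 gave 1.03, 1.24, 1.48 and 0.984. Genes of chromosome 3 as a whole were lower in cDKO, with a median log2 difference of -0.53 to -0.48 over the 4 times, against 0.07 to 0.11 for chromosome 13 and -0.01 to 0.02 for the other autosomes. With the shift of chromosome 3 in each library as an offset, 8, 11, 11 and 11 histone genes were called in the gene-wise test described below, against 6, 10, 10 and 10 without it. The added calls were H2ac20 at 0 min (log2 fold change 0.60 with the offset against 0.09 without, edgeR adjusted p = 0.00839) and, at all 4 times, H2az1, which also lies on chromosome 3.

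Counted gene by gene with no filter on low counts, 43 of the 59 replication-dependent genes with a read had a log2 fold change above 0 at 0 min, 49 of 59 at 60 min, 47 of 58 at 180 min and 50 of 59 at 540 min. Their median log2 fold changes were 0.42, 0.52, 0.58 and 0.69, beside 0.01 to 0.03 over all genes. All 3 cDKO libraries were above all 3 control libraries in 32.2% of these genes at 0 min, in 27.1% at 60 min, in 36.2% at 180 min and in 30.5% at 540 min. The shares over all genes were 13.2%, 17.2%, 16.4% and 15.9%. The opposite arrangement was seen in 4, 2, 0 and 1 replication-dependent genes, while it was seen in 15.3%, 15.1%, 14.8% and 16.0% of all genes. These genes share clusters, sequence and cells, so they are not independent of each other.

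In the gene-wise test (edgeR quasi-likelihood, Benjamini-Hochberg adjusted p under 0.05 over all genes), a filter on low counts left 53 of the 73 histone genes at 0 min, 47 at 60 min, 50 at 180 min and 46 at 540 min. At 0 min 6 were called, beside 13.4% of all genes tested, with 4 higher in cDKO (6.72% of all genes) and 2 lower (6.64%). At 60 min 10 were called, beside 20.2%, with 8 higher (9.97%) and 2 lower (10.2%). At 180 min 10 were called, beside 18.9%, with 7 higher (9.1%) and 3 lower (9.78%), and at 540 min 10, beside 19.2%, with 9 higher (8.89%) and 1 lower (10.4%). The number of histone genes called was thus close to the background of this comparison at each time. Over the 4 times 19 genes were called, of which 16 were higher (15 replication-dependent genes and H2ax) and 3 were lower (H1f0, H2az2 and H3f3b, all replacement genes).

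**Figure D3:**
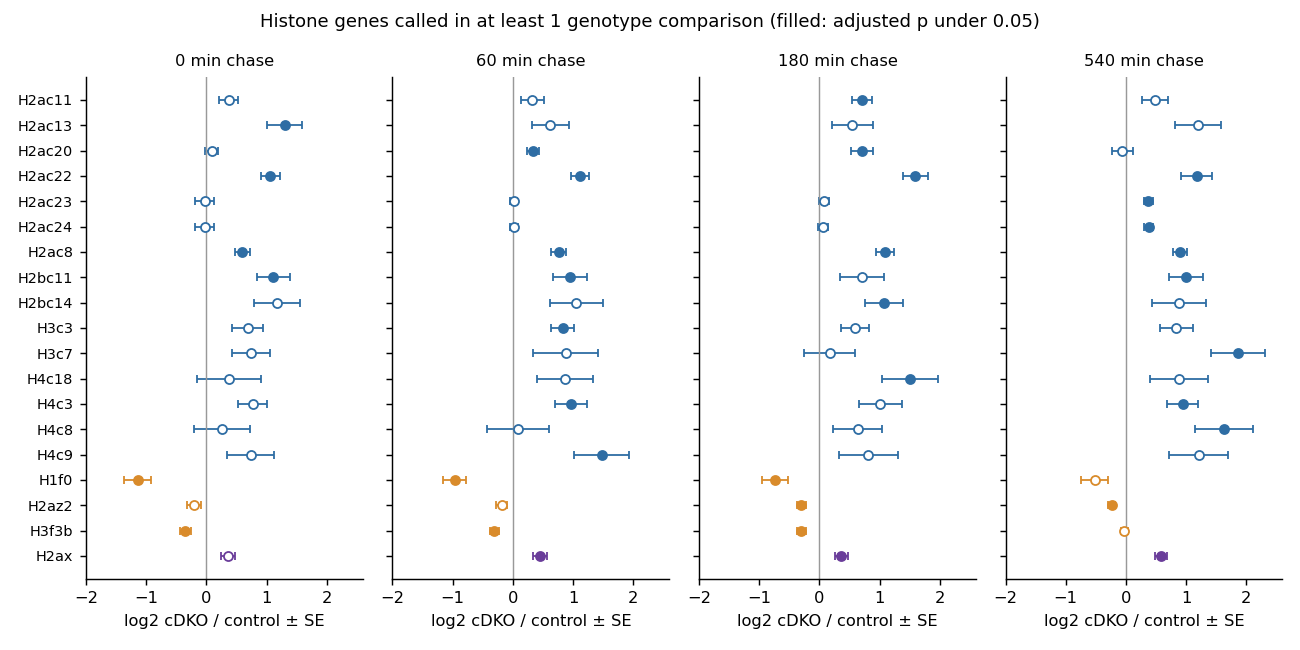
Log2 fold change of cDKO over control with its SE at each chase time, for the 19 histone genes called in at least 1 comparison; filled symbols mark an adjusted p under 0.05. The replication-dependent genes and H2ax lie to the right wherever they are filled, and H1f0, H2az2 and H3f3b lie to the left wherever they are filled.

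Only H2ac22 and H2ac8, both replication-dependent H2A genes, were called at all 4 times. H2ac22 (chr13:21786772-21786825) stood at 29.8, 27.2 and 26.1 CPM in control and 50.9, 53.5 and 67.9 in cDKO at 0 min, at 17.1, 21.4 and 17.8 against 40.8, 43.8 and 39.04 at 60 min, at 11.8, 16.5 and 12.8 against 50.2, 42.3 and 33.6 at 180 min, and at 10.7, 10.7 and 13.2 against 28.3, 17.3 and 33.1 at 540 min. No cDKO library overlapped a control library of its time. The log2 fold changes were 1.06 ± 0.16 (SE), 1.11 ± 0.15, 1.60 ± 0.21 and 1.18 ± 0.26, with edgeR adjusted p of 0.00265, 0.000632, 0.000475 and 0.0123. Without the first control library at 540 min the edgeR adjusted p at that time was 0.0576.

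H2ac8 (chr13:23570663-23570715) fell from 100.1, 80.2 and 88.1 CPM at 0 min to 47.5, 48.3 and 41.5 at 540 min in control, and stood at 124, 144 and 135 CPM at 0 min and at 84.5, 86.1 and 86.2 at 540 min in cDKO. At 60 min it was 67.5, 75.5 and 64.6 against 128, 128 and 101 CPM, and at 180 min 53.7, 53.2 and 44.6 against 122, 117 and 88.9 CPM. The genotypes did not overlap at any time. Its log2 fold changes were 0.60, 0.76, 1.09 and 0.90, with edgeR adjusted p of 0.0137, 0.0017, 0.000533 and 0.000601. At 0 min the call was lost without the second control library (edgeR adjusted p = 0.0841) or the third (edgeR adjusted p = 0.0791). Less than 0.2% of the reads of H2ac22 and H2ac8 were multimapping, 0.0805% and 0.189%.

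H2bc11, an H2B gene, was called at 0, 60 and 540 min, with log2 fold changes of 1.11, 0.95 and 1.00, and its levels were 9.01 CPM in control and 19.3 in cDKO at 0 min. H4c3 was called at 60 and 540 min (log2 fold changes 0.97 and 0.94), and H2ac20 at 60 and 180 min (0.34 and 0.71). H2ac23 and H2ac24 were called only at 540 min, with log2 fold changes of 0.37 and 0.38, and neither was called once multimapping reads were left out. Almost all of their reads were multimapping, so few were left and this check cannot decide. The log2 fold changes from those few reads were 0.45 and 0.42. H2bc11, with 17.6% multimapping reads, also lost its calls without them at 0 min (edgeR adjusted p = 0.0506) and 60 min (edgeR adjusted p = 0.109). The replication-dependent genes called at a single time were H2ac13 at 0 min, H3c3 and H4c9 at 60 min, H2ac11, H2bc14 and H4c18 at 180 min, and H3c7 and H4c8 at 540 min, with log2 fold changes between 0.71 and 1.86. Among these, only H2ac23 and H2ac24 kept their calls whichever library was left out, whereas each of the others lost at least 1 call. Some genes with the most or second most reads among the replication-dependent genes of their family were not called between genotypes at any time. They were H2bc4, H2bc12, H3c10, H4c4, H1f2 and H1f4. Log2 fold changes were 0.50 to 0.72 for H2bc12, 0.16 to 0.61 for H4c4 and -0.05 to 0.88 for H3c10. For H1f4 they were -0.08 to -0.07 at the 3 times at which it was tested. Pooled over libraries and not scaled for depth, H2bc4 covered 11353 T positions in control and 6830 in cDKO at 0 min. At the later times these were 9468 against 9805, 8267 against 10629 and 7761 against 7132. H1f2 covered 912 against 828, 807 against 752, 387 against 475 and 358 against 325 in order of time.

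H2ax encodes the H2A variant phosphorylated at DNA breaks. Its level was 91.1, 84.0 and 88.2 CPM in control and 137, 143 and 117 in cDKO at 540 min, without overlap, and the log2 fold change of 0.59 ± 0.10 (SE) passed the edgeR test (adjusted p = 0.00354). It was also called at 60 and 180 min, with log2 fold changes of 0.45 and 0.36, calls that were each lost without any 1 of the control libraries. At 0 min the log2 fold change was 0.36, with an edgeR adjusted p of 0.0669.

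Among the replacement genes, H1f0, a linker histone associated with differentiated and non-dividing cells, stood at 292, 291 and 297 CPM in control and 156, 78.0 and 164 CPM in cDKO at 0 min. The second cDKO replicate was the lowest of its group at every time, at 78.0, 90.5, 83.4 and 78.1 CPM, while the third was the highest, at 164, 184, 178 and 169.9 CPM. The log2 fold changes were -1.14, -0.97, -0.74 and -0.52, with edgeR adjusted p of 0.0102, 0.00646, 0.0338 and 0.155. H1f0 lost its call at 0 min without the second control library, with an edgeR adjusted p of 0.0512, and at 180 min without any 1 of the control libraries or without the first cDKO library and with DESeq2 (adjusted p = 0.0763), and in a joint fit of all 24 libraries (edgeR adjusted p = 0.0525).

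H3f3b, which encodes the H3.3 variant deposited outside S phase, stood at 936, 1000.1 and 966 CPM in control and 814, 747 and 694 in cDKO at 0 min, without overlap. Its log2 fold changes were -0.35, -0.31, -0.30 and -0.02, and the first 3 were called, with edgeR adjusted p of 0.0313, 0.0204 and 0.0178. Each of these calls was lost when some single control libraries were left out, with log2 fold changes between -0.40 and -0.22 over all libraries left out singly. H1f10, a replacement linker histone gene, had 139 reads in all, with 0 to 18 per library. H3f3a, the other H3.3 gene, was not called at any time, with log2 fold changes of -0.17 to -0.08. H2az2, an H2A.Z gene, was called lower at 180 and 540 min (log2 fold changes -0.30 and -0.24), calls that were lost without some single libraries. H2az1, the other H2A.Z gene, was called at no time, with group means of 706 to 804 CPM throughout, and 70.7% of its reads were multimapping. With the shift of chromosome 3 as an offset its log2 fold changes were 0.57, 0.44, 0.57 and 0.56, all called (edgeR adjusted p of 0.0489, 0.00652, 0.000979 and 0.000906).

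Over the chase, the summed level of the canonical histone genes fell in both genotypes. The sum over the 58 genes fell from 580.3 ± 24.9 CPM (SD, n = 3) to 305 ± 17.0 between 0 and 540 min in control, to 52.5% of its starting level, and from 752 ± 52.3 to 451 ± 68.7 in cDKO, to 59.9%. The pair fell to 48.9% in control and 65.5% in cDKO, and the replacement genes to 81.2% and 92.3%. The 3 libraries of each group at 540 min lay below those at 0 min for the 58 genes in each genotype and for the pair in each genotype.

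Between 540 and 0 min in control, 50 histone genes were tested and 17 were called, beside 16.2% of all genes, and all 17 were lower (8.18% of all genes were called lower and 8.06% higher). They were 13 replication-dependent genes, H1f0, H3f3b, H2ax and the pseudogene H2af-ps2. H2ac23 and H2ac24 fell by 1.08 and 1.06 on the log2 scale, H2ac20 by 1.34, H2ac22 by 1.29, H2ac8 by 1.01, H2ac4 by 1.42, H2bc4 by 0.76 and H1f2, a linker histone gene, by 1.62. H1f3 fell by 2.90, H2bc18 by 2.17, H3c7 by 1.48, H4c2 by 1.36 and H2ac11 by 0.65, and of these 5 only H2bc18 kept its call whichever library was left out. In contrast to H3f3b, which fell by 0.82, the replacement genes H2az1, H2az2 and H3f3a were not called, with log2 fold changes of -0.07, 0.18 and 0.27. The fall of H2ac24 was not called without multimapping reads (log2 fold change -0.79, edgeR adjusted p = 0.318). Few of its reads were left there, so this check cannot decide.

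In cDKO, 51 histone genes were tested between 540 and 0 min and 2 were called, beside 0.117% of all genes (0.107% lower and 0.00977% higher). They were H2ac20 (log2 fold change -1.46) and H2af-ps2 (-1.74), and 98.9% of the reads of H2af-ps2 were multimapping. With the replicate number as a block, which pairs the cDKO cultures over time, 9 histone genes were called beside 1.25% of all genes, and DESeq2 called 9 beside 1.2%. No histone gene was called when any 1 of these 6 libraries was left out, beside 0.0 to 0.0482% of all genes. H2ac23 had a log2 fold change of -0.66 ± 0.17 (SE) here, with an edgeR adjusted p of 0.259. Of the 47 histone genes tested in both genotypes, 39 had a log2 change below 0 in each.

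The difference between the genotypes in this change was tested directly, and 0 of 55 histone genes passed, beside 0.0% of 10651 genes tested (edgeR quasi-likelihood interaction). At an unadjusted p under 0.05 there were 4 histone genes (H2ac23, H2ac24, H3c7 and H3f3b) and 557 genes in all, and DESeq2 called 0 histone genes. The smaller fall of the pair in cDKO, a log2 difference of 0.42 ± 0.19 (SE) for H2ac23 with an edgeR adjusted p of 0.949, was therefore not distinguished from the spread between libraries.

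**Figure D4:**
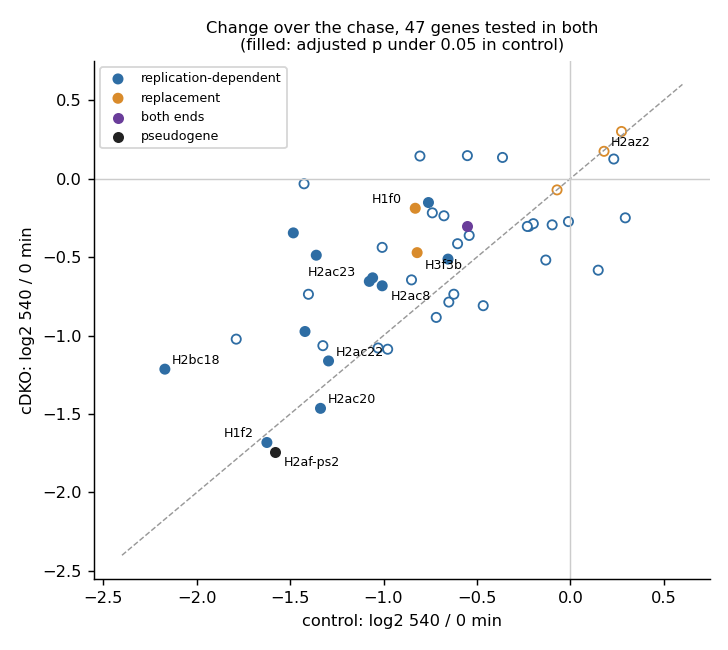
Log2 change in abundance from 0 to 540 min in cDKO (vertical axis) against control (horizontal axis) for the 47 histone genes tested in both; filled symbols were called in control and the dashed line marks equal change. Of the 47 genes, 39 lie below 0 on both axes, and H2ac20 lies near the line.

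The label itself fell fast in the pair. In H2ac23 the conversion rate was 1.33, 1.35 and 1.33% in the control libraries at 0 min and 0.0338, 0.0575 and 0.0513% at 540 min, and it went from 0.693, 0.743 and 0.481% to 0.0366, 0.0477 and 0.0531% in cDKO. Relative to its own library, the rate of the pair fell from 0.824 ± 0.008 (SD, n = 3) to 0.145 ± 0.034 in control and from 0.897 ± 0.028 to 0.256 ± 0.083 in cDKO. In contrast, the rate over the other 58 genes rose relative to the library, from 1.11 ± 0.06 to 1.89 ± 0.41 in control and from 1.22 ± 0.07 to 2.32 ± 0.26 in cDKO, while that of the replacement genes changed from 1.00 to 1.16 and from 0.996 to 1.10. The pooled rise over the 58 genes was not shared by every gene. At 540 min in control, 9.85, 11.7, 14.6 and 16.3% of the 0 min rate was left in H2ac8, H2ac20, H2ac4 and H2bc4. No conversion was then seen in H2ac22. In H2ac11, H2bc12, H3c3 and H4c4, 91.9, 74.6, 57.7 and 34.8% was left. The library-wide control rate went from 1.62 to 1.67% at 0 min to 0.305 to 0.330% at 540 min. At 540 min the unscaled rates of H2ac23 overlapped between genotypes and lay below the background rate of 0.001 of covered T positions that an alternative subtracted. The library-wide rates at that time were 0.305 to 0.330% in control and 0.162 to 0.209% in cDKO. The higher ratio of the pair in cDKO at 540 min is therefore not read as more label kept.

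Within these 58 genes conversions did not behave alike. H2ac8 went from 433 conversions in 13704 covered T positions (3.16%) at 0 min to 25 in 8029 (0.311%) at 540 min, pooled over the control libraries, and from 1.49% to 0.178% in cDKO. H2ac22 had 72 conversions in 3942 positions in control at 0 min, 19 in 2573 at 60 min, 0 in 1792 at 180 min and 0 in 1932 at 540 min, which allow rates of up to 0.167% and 0.155%, and 33, 23, 12 and 1 conversions in cDKO. H2ac11, an H2A gene with a stem-loop, had no fall in its mean rate, but its libraries spread widely, with 1.30, 1.54 and 1.92% in the control libraries at 0 min and 2.26, 2.24 and 0.372% at 540 min. Its pooled rates were 1.60, 1.60, 1.73 and 1.47% in control and 0.801, 0.915, 1.03 and 1.20% in cDKO over the 4 times. H3c3 fell from 2.54 to 1.47% in control and from 1.33 to 0.877% in cDKO. Whether the conversions of H2ac11 and H3c3 came from 4SU was not tested. These limits cover counting error only.

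**Figure D5:**
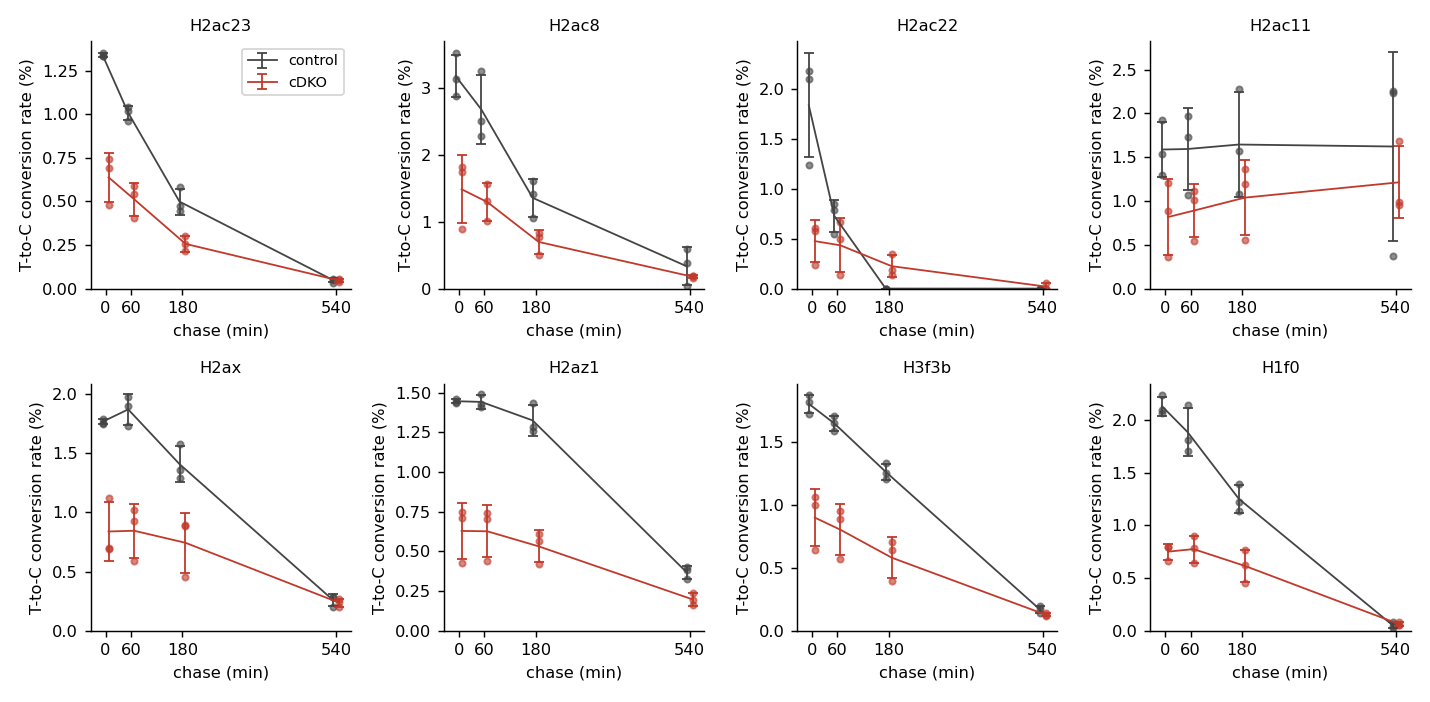
T-to-C conversion rate in percent by chase time in min for 8 histone genes; points are libraries, lines join means, and bars show SD (n = 3). The rate of H2ac23 falls from 1.34% to 0.0475% in control and from 0.639% to 0.0458% in cDKO, while the mean rate of H2ac11 does not fall between 0 and 540 min in either genotype, with overlapping libraries.

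Relative to each library's own rate, 18 histone genes had enough conversions for a test of label at 0 min between genotypes, and 0 were called, beside 0.318% of all genes (0.284% higher and 0.0341% lower in cDKO). The lowest unadjusted p were those of H1f0 (log2 difference -0.32, edgeR adjusted p = 0.464) and H3f3b (0.15, edgeR adjusted p = 0.507). DESeq2 called 0, beside 0.409% of all genes. For the decay of label, 22 histone genes were tested for a difference in slope between genotypes and 0 were called, beside 0.13% of all genes (12 genes, all slower in cDKO). The lowest unadjusted p were those of H2ac22, H1f0, H2ac23, H2ax and H2ac24, each slower in cDKO, where H2ac23 and H2ac24 are the unresolved pair. Their edgeR adjusted p were 0.109, 0.123, 0.151, 0.209 and 0.236. DESeq2 called H1f0 (adjusted p = 0.0407) beside 3.01% of all genes. The median difference in slope was 0.06 per hour on the log2 scale over the histone genes and 0.07 over all genes tested.

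Half-lives from a single exponential could be computed for 11 histone genes that met the criteria of the study at time 0. In the pair they were 129 min in control and 147 min in cDKO for H2ac23 and 139.9 and 144 min for H2ac24, which placed them at percentile 21.1 and 24.9 of all genes in control and at 22.8 and 21.8 in cDKO. H2ac20 followed with 189 and 187 min, and H1f0 with 194 and 291 min. H3f3b had 245 and 241 min, H2ax 311 and 408 min, H2az1 401 and 412 min, H2az2 565 and 750.4 min, and H3f3a 2269.8 and 907 min. Values longer than the chase of 540 min are extrapolated. H3c3, at 529 and 1159 min, had a longer half-life than the other replication-dependent genes among these 11 in each genotype. H2af-ps2, with 98.9% multimapping reads, had 179 and 615 min.

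The cDKO half-life was longer in 8 of these 11 genes, with a median log2 ratio of 0.18, beside 0.19 over the 3712 genes with a half-life in both genotypes. With a background rate of 0.001 subtracted, it was longer in 4 of 9 histone genes. The median log2 ratio was then -0.019, beside 0.045 over 2834 genes. The histone genes were thus not set apart from other genes in this respect, and no test was run over the list. The fit assumes a constant level of each RNA over the chase, and 17 of the 50 histone genes tested fell in control.

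Genes that act on histone mRNA and protein, or mark S phase, were taken as 4 lists. Of 13 genes for histone mRNA processing, among them Slbp, Npat and Casp8ap2, 12 were tested and 0 were called between genotypes at any time. Of all genes tested, 13.4, 20.2, 18.9 and 19.2% were called in order of time. Slbp, the stem-loop binding protein, had log2 fold changes of -0.16, -0.28, 0.21 and -0.01. At an unadjusted p under 0.05, 0 to 2 of the 12 differed in these comparisons. Of all genes, at least the 13.4, 20.2, 18.9 and 19.2% called were under that p. Among 15 genes for translation and decay of histone mRNA, 0, 1, 0 and 3 were higher and 0, 1, 1 and 0 lower in order of time. The shares of all genes were 6.72, 9.97, 9.1 and 8.89% higher and 6.64, 10.2, 9.78 and 10.4% lower. Mif4gd, a translation factor that binds SLBP, was higher at 60 min (log2 fold change 0.55, edgeR adjusted p = 0.0358), and Upf1, a helicase needed for histone mRNA decay, at 540 min (0.29, edgeR adjusted p = 0.0245). Eri1, an exonuclease that trims histone mRNA ends, Lsm1 and Dis3l2, an exonuclease for uridylated RNA, were not called.

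Of 15 histone chaperones, 1, 1, 3 and 3 were higher and 1, 1, 1 and 0 lower, and of 16 S phase genes, 0, 2, 2 and 2 were higher and 1, 2, 1 and 0 lower. These counts stand beside 6.72, 9.97, 9.1 and 8.89% of all genes higher and 6.64, 10.2, 9.78 and 10.4% lower. Named after their values were seen, Ssrp1, a subunit of the FACT chaperone, was higher at 0, 180 and 540 min, Anp32e, a chaperone that removes H2A.Z, was lower at 0, 60 and 180 min, Mcm3, a helicase subunit, was higher at 60, 180 and 540 min, and Ccna2, the S phase cyclin A, was lower at 0, 60 and 180 min. The summed level of the 16 S phase genes was 2549 to 2967 CPM in control libraries and 2678 to 3253 CPM in cDKO libraries, so the genotypes overlapped. No gene of these 4 lists was called in the same direction at all 4 times.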

How the data were processed

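Libraries of 3' ends (QuantSeq FWD, oligo(dT) primed, alkylated RNA, single-end reads of 85 bases) had been processed by the authors with SlamDunk 0.4.3 on GRCm38 (mm10). For each 3'UTR interval the deposited tables give read counts, multimapping read counts, covered T positions and T-to-C conversion counts, with nothing normalised, and replicates were not pooled. The deposited tables also give a conversion rate, the fraction of covered T positions that was converted, and CPM, which the authors scaled to all filtered reads and which served here only to estimate the number of filtered reads. Settings for multimapping reads and for sequence variants are not given in the sources used here, and reads shared by near-identical genes could be assigned to either.

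Of 39419 lines per table, 39091 (99.17%) were matched to a symbol through RefSeq gene names. The 30432 distinct intervals were reduced to 29022 by keeping the longest of overlapping ones, and counts were summed to 20868 genes. The histone genes, classes, pathway lists and markers were chosen with earlier results of these data known.

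CPM in the text was computed here from the 3'UTR reads of each library. Levels were tested with edgeR 4.0.16 (quasi-likelihood, TMM, filterByExpr, R 4.3.3), with Benjamini-Hochberg adjustment over all genes tested and a threshold of 0.05. Log2 fold changes are those fits' coefficients. Conversions were tested in the same way with the log of the T coverage as offset (multiplied by the library-wide rate for label at 0 min), in genes whose covered T positions reached 100 in every library and whose conversions summed to 50 or more. Half-lives were fitted as a single exponential to rates divided by the genotype mean at 0 min, in genes with a mean above 0.8 and an SD below 0.3 there. The limit for a count of 0 was 3 counts. Alternatives were DESeq2 1.42.0, RLE scaling, no filter, other intervals, leaving out multimapping reads or single libraries, a replicate block, a joint fit and an offset for the shift of chromosome 3. The tests were checked on simulated data.

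Genes were named by rule: every histone gene called in a comparison, the 2 with the most reads per family and class, Tut4, Tut7, and Slbp, Eri1, Lsm1, Upf1, Dis3l2, Npat, Casp8ap2 and Mif4gd. Same-numbered cDKO libraries deviated together across times (r of 0.27 to 0.71 over genes), so numbers pair the cDKO libraries, whereas r was -0.02 to 0.10 across times in control and -0.05 to 0.06 between genotypes. Stem-loops were read from GENCODE vM39 transcripts and promoters from RefSeq. Precision is limited by 3 libraries per group and, for label, by the T positions covered.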

Additional observations from a re-analysis of the deposited data

How the results depend on the processing

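Of 838 values of named genes under the alternatives, 689 kept the call, 149 lost it and 0 reversed, and 118 of the lost calls came from leaving out single libraries, where fewer samples are tested. These values include Tut4 and Tut7, the deleted genes, which kept their calls in all 14 alternatives at each time. All lost calls were thus those of histone genes. Leaving out single libraries gave 1 to 10 histone genes called between genotypes at 0 min (6 with all), beside 6.08 to 21.3% of all genes. At 60 min it gave 3 to 9 (10 with all), beside 12.6 to 22.7%. At 180 min it gave 3 to 10 (10), beside 11.2 to 21.0%, and at 540 min 5 to 9 (10), beside 11.3 to 19.8%. For 540 against 0 min in cDKO it gave 0 each time (2 with all), beside 0.0 to 0.0482%. The joint fit of all 24 libraries called 11, 10, 15 and 13 histone genes in order of time, beside 21.1, 20.6, 21.5 and 21.4% of all genes, and the offset for chromosome 3 called 8, 11, 11 and 11, beside 11.2, 17.9, 16.7 and 16.7%. For 540 against 0 min in cDKO, DESeq2 called 9 (1.20% of all genes) and the counts without multimapping reads 1 (0.119%). With log coverage alone as offset, which leaves in the lower labelling of the cDKO libraries, 14 of 18 histone genes (77.8%) were called lower in label at 0 min, beside 84.6% of all genes. DESeq2 called 1 of 22 in the decay difference (4.55%), beside 3.01%. The median log2 half-life ratio of 0.18 became -0.019 with a background rate of 0.001 subtracted, 0.36 with no SD filter and 0.39 when the log of the rate was fitted as a line whose intercept was free, and ranged from 0.047 to 0.39 without single replicates; the cause was not tested.

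With the replicate number as a block, 4, 6, 7 and 8 histone genes were called between genotypes at 0, 60, 180 and 540 min, beside 10.7, 17.6, 16.9 and 15.4% of all genes, 16 for the chase in control (15.5%) and 9 for that in cDKO (1.25%). It called 0 in the interaction, in label at 0 min and in the decay difference, and the half-life ratio was 0.21. A block within each genotype, chosen after seeing the data, called 0 histone genes in the interaction.

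The summed levels and their alternatives were chosen after seeing the data, and those of the 58 replication-dependent genes and of the replacement genes kept their direction. For the pair, the log2 ratio ranged from -0.157 to 0.13 at 0 min and from -0.0058 to 0.082 at 60 min without single libraries. Without multimapping reads, which leaves few reads of the pair, it was -0.045 at 60 min. For the 58 replication-dependent genes, taking only those on chromosome 13 moved the log2 ratio from 0.37 to 0.52 at 0 min and from 0.54 to 0.62 at 60 min. For the replacement genes, leaving out multimapping reads gave log2 ratios of -0.39 at 0 min (main value -0.27), -0.29 at 180 min (-0.19) and -0.12 at 540 min (-0.09), and leaving out H3f3b gave -0.11 at 540 min. Only 18 of the 73 histone genes had at least 20 conversions at 0 min in each genotype, which limits what the conversion rates can show.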
